A study of Mus musculus with 12 samples.

Results

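The genes that write, keep and oxidise DNA methylation were followed in mouse embryonic stem cells before and after Activin A: the DNA methyltransferase genes Dnmt1, Dnmt3a and Dnmt3b, their cofactors Dnmt3l and Uhrf1, and the TET dioxygenase genes Tet1, Tet2 and Tet3. They were taken by symbol from the deposited expression table, with the locus of highest mean kept where a name had several, and make up 8 of 13508 named genes. The unit is FPKM, which divides the fragments of a locus by its length and by the reads of its library, so levels can be set side by side between genes.

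RNA was sequenced from 4 lines of 129SvEv embryonic stem cells, wild-type (WT) lines 18 and 26 and Arkadia -/- lines 25 and 39, called null here. Arkadia, encoded by Rnf111, is a ubiquitin ligase that removes repressors of SMAD signalling such as SnoN, the product of Skil. Every dish spent 24 h in N2B27 on fibronectin after maintenance in 2i with LIF, and then 4 h in 10 µM SB431542, which blocks the Activin and Nodal receptor kinases; the dish harvested there is the SB group, and the others were washed and given 10 ng/ml Activin A for 3 or 6 h. Each of the 6 groups therefore held 2 libraries, 1 per line, and the labels do not say whether the lines of a genotype came from separate clones or embryos, so p-values measure the spread between lines only. No dish was given fresh medium without Activin, so the removal of the inhibitor, the new medium, the hours in culture and Activin itself cannot be told apart, and all groups carry the earlier SB431542 step.

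The libraries matched their labels. Rnf111 stood at 3.19 to 4.27 FPKM in the 6 WT libraries and at 0.539 to 0.855 FPKM in the 6 null libraries, and Lefty1, a target of Activin signalling, rose from a mean of 0.0363 to 102.5 FPKM in WT cells after 3 h. All 10 pluripotency markers looked for were present, with a summed level of 1540 to 2580 FPKM. The highest were Dppa5a at 532 to 1050 FPKM and Pou5f1 at 562 to 926 FPKM. Relative depth, read from the smallest steps between low values, ranged from 1 (null line 39 at 6 h) to 1.81 (WT line 26 in SB), and was lower at 6 h than in SB in 3 of the 4 lines. Read totals are not given in the files, so no counting interval could be set on a single value.

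In mammals DNA methylation falls mainly on the cytosine of CpG. DNMT3A and DNMT3B place it on unmethylated DNA, helped by DNMT3L, which has no catalytic activity of its own. After each round of replication UHRF1 recognises CpG methylated on a single strand and recruits DNMT1, which copies the mark to the new strand, while TET enzymes oxidise 5-methylcytosine and so open routes to its removal. Cells kept in 2i have little DNA methylation, and the move towards an epiblast-like state is known for a rise of Dnmt3a and Dnmt3b and a gain of methylation across the genome.

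The promoter of Dnmt3b is shown first because Dnmt3b was the most abundant member and fell after Activin in WT cells. Its closest relative, Dnmt3a, passed in no comparison of the main fit but did in some under other settings given below. The promoter of Dnmt3a is set beside that of Dnmt3b. Both lie upstream of the RefSeq start on the plus strand (GRCm38, the assembly also called mm10), chr2:153649199-153649393 for Dnmt3b and chr12:3806730-3806977 for Dnmt3a, and capitals mark each CpG.
Dnmt3b: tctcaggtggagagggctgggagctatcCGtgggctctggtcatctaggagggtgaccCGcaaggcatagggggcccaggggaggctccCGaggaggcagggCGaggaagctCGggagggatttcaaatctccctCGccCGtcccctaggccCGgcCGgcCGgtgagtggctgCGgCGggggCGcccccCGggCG
Dnmt3a: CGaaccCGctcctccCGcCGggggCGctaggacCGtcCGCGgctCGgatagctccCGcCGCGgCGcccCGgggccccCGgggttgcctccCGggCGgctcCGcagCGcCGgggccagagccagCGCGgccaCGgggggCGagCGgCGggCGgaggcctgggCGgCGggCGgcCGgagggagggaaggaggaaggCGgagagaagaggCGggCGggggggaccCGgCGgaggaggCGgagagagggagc
The Dnmt3b stretch holds 15 CpG in 195 bases and the Dnmt3a stretch 37 in 248 bases. Over the whole 250 bases before a start, Dnmt3b has 21 CpG and Dnmt3a 38 and 40 at its first pair of starts, against a median of 6 over 32851 RefSeq promoter windows. The 3 annotated Dnmt3l starts have 3 to 5 CpG, fewer than that median, so the pair of most abundant members differ in this respect.

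Uhrf1 is shown because it fell in both genotypes and because its promoter carries letters of the site bound by E2F factors, which drive genes of DNA replication. The window before its second RefSeq start is chr17:56304063-56304312 (GRCm38, plus strand), with the match to TTTNNCGC in capitals. This window lies inside the locus over which Uhrf1 was measured, as the second start is 1081 bases from the 5′ end of that locus. The first start is 105 bases from that end, and its window is not printed.
Uhrf1: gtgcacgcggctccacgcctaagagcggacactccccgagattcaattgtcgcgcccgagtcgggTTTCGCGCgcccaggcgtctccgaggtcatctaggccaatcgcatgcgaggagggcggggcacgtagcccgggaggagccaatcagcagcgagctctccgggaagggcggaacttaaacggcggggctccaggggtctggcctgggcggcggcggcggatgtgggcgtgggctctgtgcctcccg
TTTNNCGC, read on both strands, was found in 4.28% of all such windows. Among the members it was found before both Uhrf1 starts and before 1 of the 3 Dnmt1 starts, where 2 matches overlap, and in no window of the other 6 genes. CAGAC, the letters of a SMAD box, was found in 42.2% of all windows and in 1 window each of Dnmt1, Uhrf1, Dnmt3l and Tet1; GGCGCC, a GC-rich SMAD element, was found in 9.59% of all windows and in all 3 Dnmt3a windows, the Dnmt3b window, where it occurs at 2 places, and 1 Dnmt1 window. These are matches of letters, not sites shown to be bound.

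The 8 genes covered a wide span of levels, and their order was the same in all 12 libraries. Dnmt3b had a mean of 102.9 FPKM (84.8 to 127.8 over the libraries) and Dnmt3l a mean of 79.9 FPKM (53.0 to 108.9). These ranges overlap, although Dnmt3b was above Dnmt3l within each library. Uhrf1 followed at a mean of 34.6 FPKM (26.2 to 46.4), Dnmt3a at 22.0 FPKM (19.3 to 25.3), Dnmt1 at 12.6 FPKM (10.1 to 15.3) and Tet1 at 3.06 FPKM (2.39 to 3.42), each range clear of the next. Dnmt3b and Dnmt3l were above 92.2% and 90.3% of the named genes by mean level, Uhrf1 above 81.5%, and Tet3 above 21.4%. The summed level of Dnmt3a, Dnmt3b and Dnmt3l was 158 to 261 FPKM in a library, and that of the 3 TET genes 3.81 to 6.94 FPKM.

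The low TET values have to be read with their loci. Tet3, at a mean of 1.65 FPKM (1.14 to 2.09), is measured over chr6:83362410-83367603 (mm10, minus strand), which lies in the 3′ untranslated part of its last exon, holds 44.2% of the gene's exon bases and holds none of its coding bases. Tet2 is measured over only 366 bases of its last exon, 3.98% of its exon bases, at chr3:133466420-133466785 (mm10, minus strand). Its values are whole multiples of what a single read is worth: 11 reads in WT line 26 in SB, 0 to 3 in each of the other libraries, and listed at 0 in 3 of them. Tet2 therefore failed the filter of 1 FPKM in 2 libraries, no comparison is given for it, and its place at the end of the order says little about the whole transcript. Tet1 is split over 3 rows of the same span (chr10:62804495-62899065, mm10, minus strand), and the 2 rows not used had means of 1.48 and 1.19 FPKM. The loci kept for the other 5 genes hold 96.1% to 100% of their exon bases and all of their coding bases: chr9:20906979-20959733 (minus strand) for Dnmt1, chr17:56303232-56323486 for Uhrf1, chr12:3806978-3914412 for Dnmt3a, chr2:153649394-153687736 for Dnmt3b and chr10:78045877-78063704 for Dnmt3l (plus strand, mm10).

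**Figure D1:**
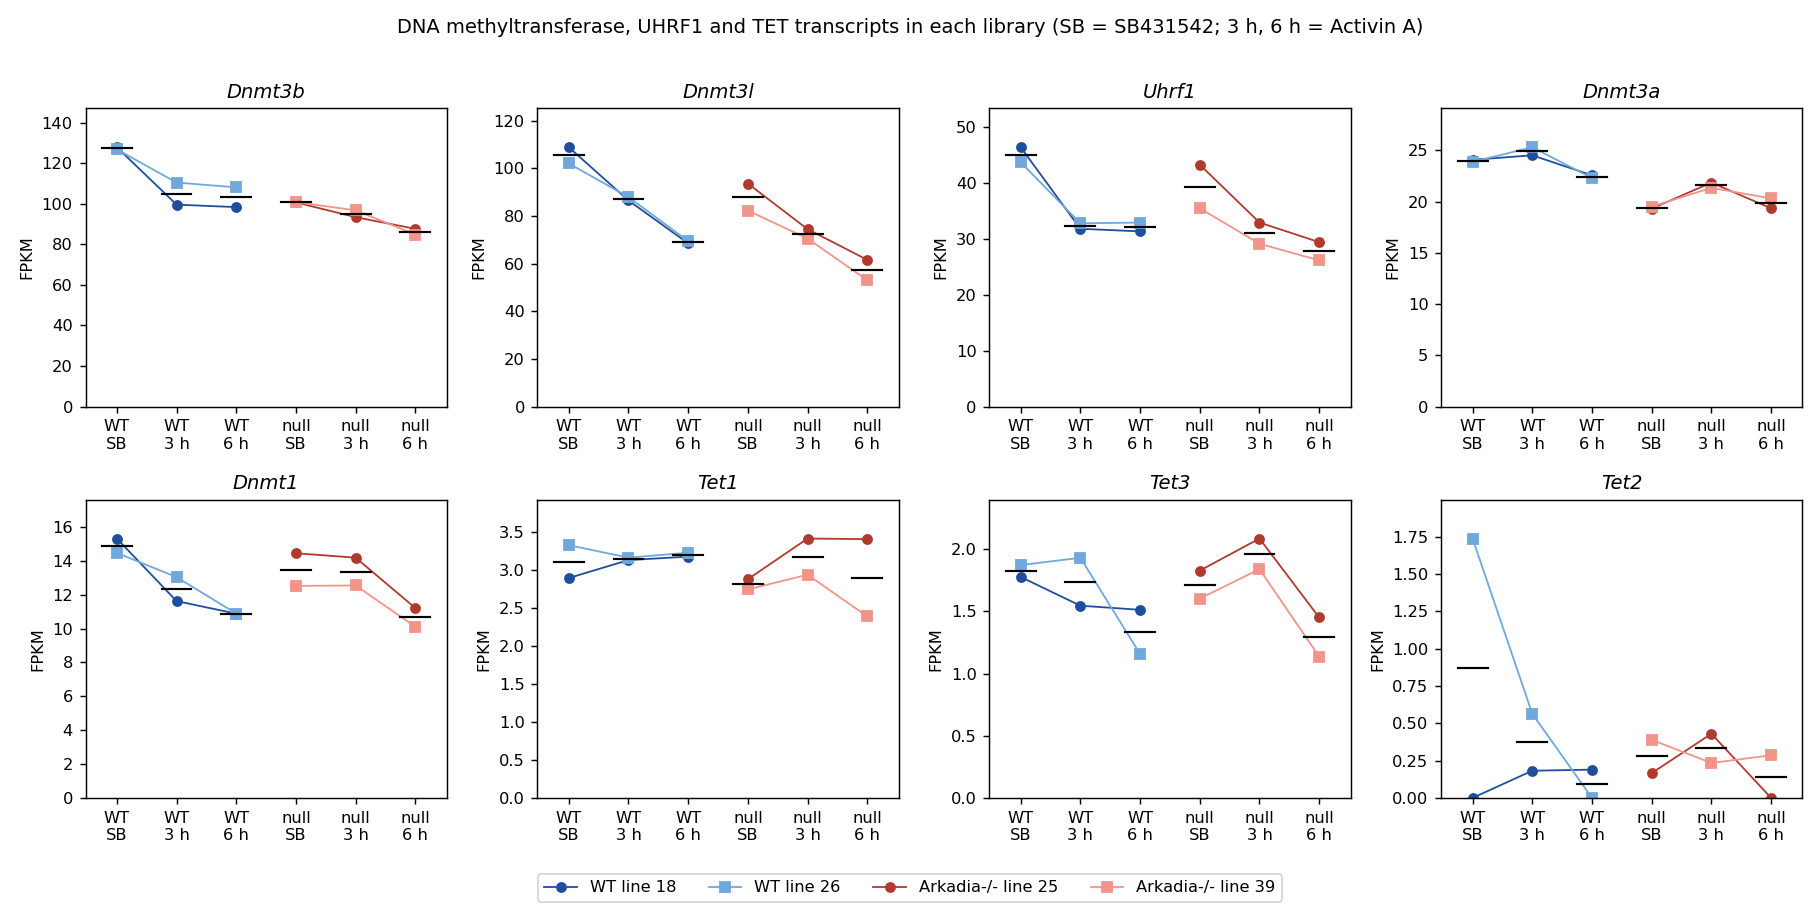
FPKM (vertical axis, linear, from 0, a scale of its own for each gene) of the 8 genes in each of the 12 libraries, by genotype and treatment (horizontal axis); points are single libraries, lines join the libraries of a cell line and black bars are group means. Dnmt3l goes down at each step in all 4 lines, from a mean of 105.5 to 69.0 FPKM in WT and from 88.0 to 57.3 FPKM in null cells, while Dnmt3a stays between 19.3 and 25.3 FPKM.

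The first comparison asks how the 8 genes responded to Activin in WT cells. After 3 h, 2 of the 7 tested members fell, Uhrf1 and Dnmt3b, and none rose; 22.5% of all 12823 genes tested passed, 9.83% as lower. After 6 h, 4 of 7 fell, Dnmt3l, Uhrf1, Dnmt1 and Dnmt3b, and none rose, against 15.9% of all genes tested, 6.31% as lower. The median difference over the 7 was -0.25 on the log2 scale at 3 h and -0.30 at 6 h, beside -0.0094 and 0.016 over all genes. Tests are limma fits on log2(FPKM + 1) with Benjamini-Hochberg adjustment over all genes tested, and a difference passed at an adjusted p under 0.05. Comparisons at 3 h and 6 h share their SB libraries. Where Activin and SB libraries are said below not to overlap, this is a description only. The share of all genes without such overlap was not counted for the Activin comparisons.

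Markers used to check the cell type also changed after Activin. Of all genes tested in WT cells, 22.5% passed at 3 h, 9.83% as lower, and 15.9% at 6 h, 6.31% as lower. In null cells 13.6% passed at 3 h and 13.4% at 6 h. The summed level of the 6 of 10 neural markers in the table (no row for Neurog2, Neurod1, Olig2 and Pou3f2) was 31.5 to 38.0 FPKM in WT cells in SB, 25.0 to 25.2 at 3 h and 23.4 to 24.5 at 6 h, and 29.2 to 36.1, 27.8 to 31.9 and 22.6 to 26.3 FPKM in the null lines. Most of this sum was Tubb3, at 15.9 to 26 FPKM over the libraries. Of 5 neural markers tested in WT cells, Sox1 (adjusted p = 0.017 by limma) and Tubb3 (0.043) fell and Nes (0.010) rose at 3 h, and Pax6 (0.020) and Tubb3 (0.038) fell at 6 h; the median difference of the 5 was -0.45 and -0.50 on the log2 scale. In null cells Nes rose at 3 h and Pax6 fell at 6 h. Sox1 itself was at 0.847 to 3.39 FPKM over the libraries, and none of the 6 was at 0 in any library. Of 10 pluripotency markers, 5 fell and 4 rose at 3 h and 4 fell and 4 rose at 6 h in WT cells, among them Sox2 (-0.68 and -0.86) and Zfp42 (-0.78 and -0.67) as lower and Nanog and Tdgf1 as higher. Of 4 endoderm markers tested, 1 rose at 3 h in both genotypes, Gata4, which was at 0.188 to 2.83 FPKM over the libraries. None of the 4 passed at 6 h. Of 8 fibroblast markers tested, 1 rose and 1 fell in WT cells at 3 h, and again at 6 h. In null cells at 6 h 1 fibroblast and 1 of 8 trophoblast markers fell. The part of these marker changes in the falls of the members was not tested.

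Among the de novo genes, Dnmt3l showed the largest difference of the 7 members at 6 h. In WT cells it stood at 108.9 FPKM in line 18 and 102.1 in line 26 in SB, at 86.6 and 88.0 after 3 h, and at 68.5 and 69.5 after 6 h. The 3 groups did not overlap, and each time point was below the one before it in both lines. The difference from SB was -0.60 on the log2 scale at 6 h (SE 0.087, adjusted p = 0.0029 by limma), so that Dnmt3l fell by 34.2%; at 3 h it was -0.27 (SE 0.087, adjusted p = 0.055), which did not pass, although Dnmt3l passed there under 9 of 14 other settings, quantile normalization among them.

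Dnmt3b, a methyltransferase of the epiblast state, fell in WT cells at both times. It was at 127.8 and 126.8 FPKM in SB in lines 18 and 26, at 99.5 and 110.4 after 3 h, and at 98.3 and 108.1 after 6 h. All 4 Activin libraries lay below both SB libraries, and the 3 h and 6 h values overlapped. The differences from SB were -0.28 (SE 0.069, adjusted p = 0.025 by limma) and -0.30 (SE 0.069, adjusted p = 0.023), and the 6 h level differed from the 3 h level by -0.024 (95% interval -0.18 to 0.13). With trends in GC content and transcript length removed from each library, Dnmt3b no longer passed, at -0.21 (adjusted p = 0.068) and -0.23 (adjusted p = 0.061). The same differences passed where the cell line was also fitted as a block (adjusted p = 0.01 and 0.0089 by limma). Over all genes the median WT difference at 6 h went from 0.10 among transcripts of lowest GC to -0.050 among those of highest GC, in 5 equal classes; the longest Dnmt3b transcript has 53.1% GC, more than 68.0% of the genes tested.

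Dnmt3a, the other de novo enzyme, varied least. In WT cells its values were 24.1 and 23.9 FPKM in SB, 24.5 and 25.3 after 3 h, and 22.6 and 22.3 after 6 h. The differences from SB were 0.053 (95% interval -0.064 to 0.17) and -0.092 (95% interval -0.21 to 0.025) on the log2 scale, neither of which passed. The ratio of Dnmt3b to Dnmt3a went from 5.31 in both WT lines in SB to 4.06 and 4.36 after 3 h, and was 4.36 and 4.85 after 6 h.

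Of the maintenance pair, Uhrf1 had reached its lower level by 3 h. It stood at 46.4 and 43.7 FPKM in SB in WT lines 18 and 26, at 31.8 and 32.8 after 3 h, and at 31.3 and 32.9 after 6 h. No Activin library came near the SB pair. The differences were -0.47 at both times (SE 0.10; adjusted p = 0.017 at 3 h and 0.019 at 6 h by limma); Uhrf1 fell by 27.7% at 3 h.

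Dnmt1, the maintenance enzyme, was lower at 6 h. Its WT values were 15.3 and 14.5 FPKM in SB, 11.6 and 13.0 after 3 h, and 10.9 in both lines after 6 h. The groups did not overlap, and the difference passed at 6 h (-0.42, SE 0.095, adjusted p = 0.022 by limma) but not at 3 h (-0.25, adjusted p = 0.083).

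Neither tested TET gene passed in WT cells. Tet1, the TET enzyme best known from embryonic stem cells, was at 2.90 and 3.33 FPKM in SB, 3.13 and 3.16 after 3 h, and 3.18 and 3.23 after 6 h, so that all Activin values lay between the 2 SB values. Its 6 h difference was 0.034 on the log2 scale (95% interval -0.25 to 0.32), which does not exclude changes of that width. Tet3 was at 1.78 and 1.87 FPKM in SB, 1.55 and 1.93 after 3 h, and 1.51 and 1.16 after 6 h, where it did not overlap SB; that difference was -0.28 (95% interval -0.56 to 0.0050, adjusted p = 0.15 by limma).

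The same lines were used at every time, and with the cell line as a block, which removes steady differences between lines, 4 members passed in WT cells at 3 h in place of 2, where 37.2% of all genes did: Dnmt1 (adjusted p = 0.020) and Dnmt3l (adjusted p = 0.0069) joined Uhrf1 and Dnmt3b in the limma fit. The blocked fit also passed Dnmt3l between 3 h and 6 h (-0.33, adjusted p = 0.018, 6.64% of all genes), a step for which 0 of 7 members passed without the block, where 2.53% of all genes did, 325 genes in all, with 2161 at an unadjusted p under 0.05. Without WT line 18 or without WT line 26, 0 members passed at either time, and only 89 to 143 of all genes did; the lone WT line is then assumed to vary like the other groups.

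**Figure D2:**
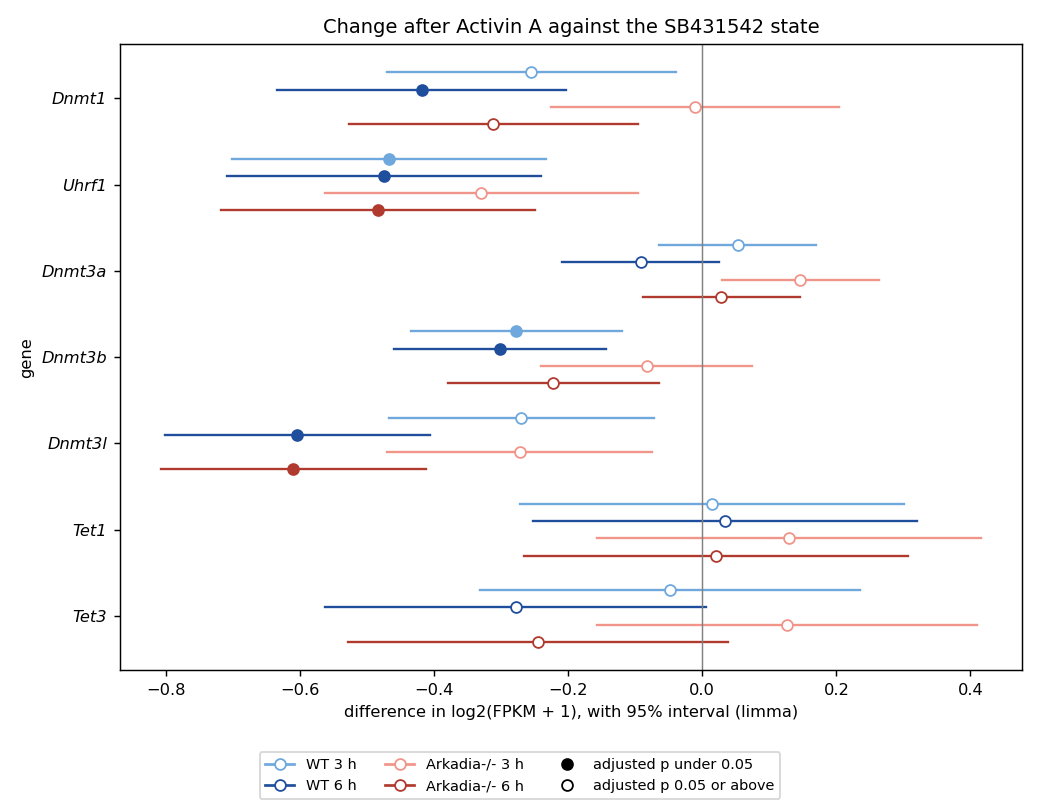
Difference in log2(FPKM + 1) between Activin A and SB (horizontal axis) for the 7 tested genes (vertical axis), in WT cells (blue) and null cells (red) at 3 h and 6 h; bars are 95% intervals of the limma fit and filled points passed at an adjusted p under 0.05. Uhrf1 and Dnmt3l lie furthest to the left at 6 h in both genotypes, at -0.47 to -0.61, and the intervals of Tet1 all include 0.

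The second comparison asks for the same response in null cells. After 3 h, 0 of the 7 members passed, where 13.6% of all genes did, 7.14% as lower (1749 genes, and 4069 at an unadjusted p under 0.05, 3 of the members among them), and after 6 h 2 of 7 fell, Dnmt3l and Uhrf1, where 13.4% of all genes passed, 5.53% as lower. The median difference over the 7 was -0.011 at 3 h and -0.25 at 6 h on the log2 scale.

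Dnmt3l, the DNMT3 cofactor, was at 93.7 FPKM in null line 25 and 82.3 in line 39 in SB, at 74.5 and 70.6 after 3 h, and at 61.6 and 53.0 after 6 h. As in WT cells, the 3 groups did not overlap. Its differences from SB were -0.27 at 3 h (adjusted p = 0.071 by limma) and -0.61 at 6 h (SE 0.087, adjusted p = 0.0033).

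Uhrf1, which brings DNMT1 to newly copied DNA, was at 43.3 and 35.5 FPKM in SB in the null lines, 32.9 and 29.1 after 3 h, and 29.4 and 26.2 after 6 h. Every Activin library was below both SB libraries. The differences were -0.33 (adjusted p = 0.067 by limma) and -0.48 (SE 0.10, adjusted p = 0.020).

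Dnmt1 and Dnmt3b did not pass in the null lines at either time. Dnmt1 was at 14.5 and 12.5 FPKM in SB, 14.2 and 12.5 after 3 h, and 11.2 and 10.1 after 6 h. Only the 6 h pair lay apart from SB (-0.31, adjusted p = 0.062 by limma). Dnmt3b was at 100.6 and 100.8 FPKM in SB, 93.3 and 96.7 after 3 h, and 87.6 and 84.8 after 6 h; its 6 h difference of -0.22 had an adjusted p of 0.066 by limma.

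Dnmt3a was at 19.3 and 19.5 FPKM in SB in the null lines, 21.8 and 21.3 after 3 h, and 19.3 and 20.3 after 6 h. The 3 h pair was above the SB pair by 0.15 on the log2 scale (95% interval 0.029 to 0.26, adjusted p = 0.092 by limma). Tet1 was at 2.88 and 2.75 FPKM in SB and at 3.41 and 2.39 after 6 h, the widest gap between lines of a group for this gene. Tet3 was at 1.83 and 1.60 FPKM in SB, 2.09 and 1.84 after 3 h, and 1.45 and 1.14 after 6 h, a difference of -0.25 at 6 h (adjusted p = 0.20 by limma).

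With the cell line as a block, 3 members passed in null cells at 3 h, where 29.5% of all genes did: Uhrf1 (adjusted p = 0.0069) and Dnmt3l (adjusted p = 0.0096) as lower and Dnmt3a (adjusted p = 0.045) as higher by limma. At 6 h, 4 passed, all lower, beside 31.4% of all genes, Dnmt1 (adjusted p = 0.013) and Dnmt3b (adjusted p = 0.018) joining the other 2. Between 3 h and 6 h, 0 members passed without the block, where 4.63% of all genes did (594 genes, and 2844 at an unadjusted p under 0.05), and 2 passed with it, where 13.4% of all genes did, Dnmt3l (-0.34, adjusted p = 0.012) and Dnmt1 (-0.30, adjusted p = 0.030). At 6 h the count was 0 in a fit of the 2 groups compared alone, without WT line 18 and without WT line 26; at 3 h, 2 members passed without null line 39.

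The difference in response between null and WT cells was tested directly, and 0 members passed at 3 h or at 6 h; 0% of all genes did in the limma fit, with 654 and 382 genes at an unadjusted p under 0.05, none of them a member. For Dnmt3l the difference in response was -0.0024 at 3 h (95% interval -0.28 to 0.28) and -0.0056 at 6 h (95% interval -0.29 to 0.27) on the log2 scale. The widest differences at 3 h were those of Dnmt1, 0.24 (95% interval -0.061 to 0.55), and Dnmt3b, 0.19 (95% interval -0.028 to 0.42), whose 3 h values were below SB in both WT lines and nearer to it in the null lines. Skil, a direct Activin target given as a scale, went from 10.9 and 11.1 FPKM in SB to 35.5 and 38.6 at 3 h in the WT lines, and from 8.81 and 7.97 to 15.7 and 16.2 in the null lines.

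**Figure D3:**
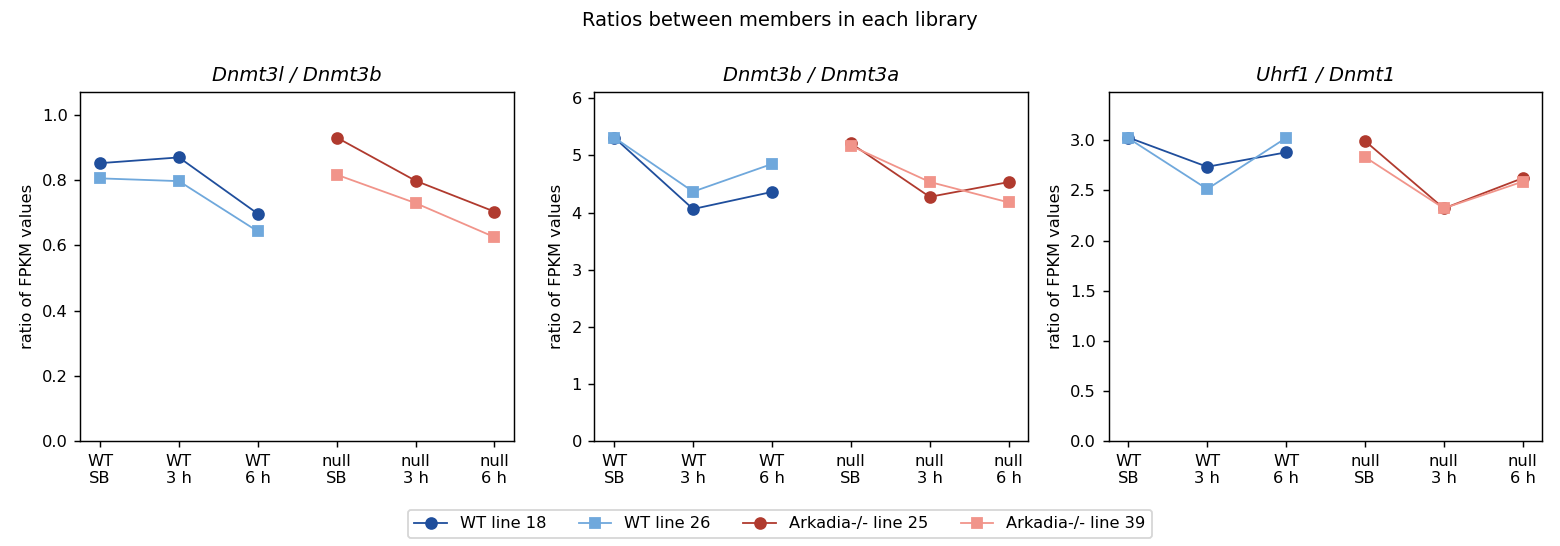
Ratio of the FPKM values of 2 genes in each library (vertical axis, linear, from 0) by genotype and treatment (horizontal axis), with lines joining the libraries of a cell line. Dnmt3l to Dnmt3b is 0.81 to 0.93 in SB and 0.63 to 0.70 at 6 h in the 4 lines, and Dnmt3b to Dnmt3a is 5.17 to 5.31 in SB and 4.06 to 4.85 in all Activin libraries.

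Ratios between members show the change in proportions without reference to other genes. Dnmt3l to Dnmt3b was 0.852 and 0.806 in SB for the WT lines (18, then 26), and 0.931 and 0.817 for the null lines (25, then 39). After 6 h of Activin the WT lines had 0.697 and 0.643 and the null lines 0.704 and 0.626, below every SB value. Uhrf1 to Dnmt1 was 2.83 to 3.03 in SB in the 4 lines and 2.32 to 2.74 at 3 h; after 6 h the WT lines had 2.88 and 3.02 and the null lines 2.62 and 2.59. These ratios are a description and were not tested.

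The third comparison asks for a difference between null and WT cells in the same treatment. No member passed in SB, at 3 h or at 6 h, where 0.312%, 0.382% and 0.211% of all genes did in the limma fit (40, 49 and 27 genes, and 1910, 1655 and 1881 at an unadjusted p under 0.05, with 3, 2 and 3 members among these). The values of all 3 DNMT3 genes were lower in both null lines than in both WT lines in each treatment, with no overlap; of all genes tested, 22.6% were lower in this way before Activin, 25.6% after 3 h of it and 25.7% after 6 h, and 6.61% were in all 3 treatments. Dnmt3a was at 19.3 to 21.8 FPKM in the 6 null libraries and 22.3 to 25.3 FPKM in the 6 WT libraries, with no overlap over all 12, as 0.741% of all genes tested were.

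In SB the differences were -0.29 for Dnmt3a (SE 0.052, adjusted p = 0.072 by limma), -0.33 for Dnmt3b (SE 0.069, adjusted p = 0.11) and -0.26 for Dnmt3l (SE 0.087, adjusted p = 0.26). At 6 h they were -0.17, -0.26 and -0.27, with adjusted p values of 0.23, 0.20 and 0.26 by limma. Averaging the 3 libraries of each line and comparing 2 lines with 2, which treats the line as the replicate, gave -0.22 for Dnmt3a (95% interval -0.37 to -0.073, adjusted p = 0.29), -0.24 for Dnmt3b (95% interval -0.42 to -0.064, adjusted p = 0.32) and -0.26 for Dnmt3l (95% interval -0.47 to -0.063, adjusted p = 0.33); 0% of all genes passed in that limma fit, with 1710 at an unadjusted p under 0.05.

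The other members were closer between genotypes in SB and on line means, but not all of them were at 6 h. In SB the null lines had lower Dnmt1, Uhrf1 and Tet1 values without overlap, with differences of -0.14 (95% interval -0.35 to 0.079), -0.20 (95% interval -0.43 to 0.038) and -0.11 (95% interval -0.39 to 0.18), and at 3 h all 3 overlapped. At 6 h Uhrf1 was again lower without overlap, as 25.7% of all genes tested were. Its difference there was -0.205 (95% interval -0.44 to 0.029), wider than that of Dnmt3a at -0.17. On line means the difference was -0.020 for Dnmt1, -0.15 for Uhrf1, -0.073 for Tet1 and 0.011 for Tet3, with adjusted p values of 0.45 to 0.96 by limma. A fit without null line 25 changed the calls: Dnmt3a (adjusted p = 0.022), Dnmt3l (0.014) and Uhrf1 (0.023) then passed as lower in SB, and Dnmt3l (0.015) and Uhrf1 (0.044) at 6 h by limma, beside 16% and 11.8% of all genes. Without null line 39 none passed. Dnmt3a also passed in SB after quantile normalization and with a filter of 5 FPKM.

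Summed levels of some markers of other cells differed between the genotypes, although no fibroblast or trophoblast marker passed for null against WT in any treatment. The summed level of the 8 of 10 fibroblast markers in the table (Lum and Postn have no row) was 65.8 to 85.2 FPKM in the WT libraries and 91.4 to 144 FPKM in the null libraries, mostly Acta2, and that of the 8 of 10 trophoblast markers (no row for Elf5 and Plac1) was 86.2 to 102 FPKM and 115 to 167 FPKM, mostly Krt8 and Krt18. The defining fibroblast genes Col1a1 and Col1a2 were at 0.630 to 2.14 and 0.366 to 3.17 FPKM, and Cdx2, which marks trophoblast, at 0.924 to 1.86 FPKM. Of these genes, 0 passed for null against WT in SB by limma, and 4 fibroblast and 2 trophoblast markers had an unadjusted p under 0.05. Of the 10 pluripotency markers, 1 passed between the genotypes, Zfp42. It was higher in null cells in SB (0.52, adjusted p = 0.023 by limma) and at 3 h (0.44, adjusted p = 0.042). Of all genes, 0.312% passed in SB and 0.382% at 3 h. At 6 h 0 of the 10 passed, beside 0.211% of all genes. In such bulk RNA, fewer cells expressing a DNMT3 gene and less of its RNA per cell cannot be told apart, and the part of the marker levels in the DNMT3 differences was not tested.

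**Figure D4:**
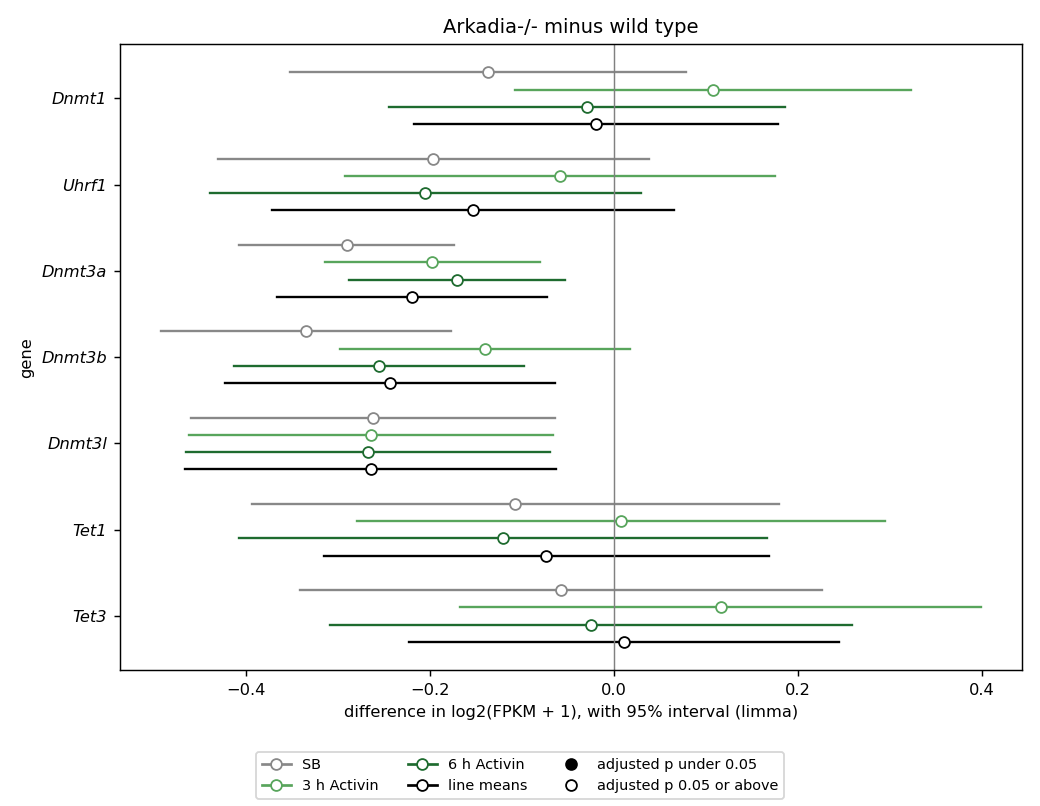
Difference in log2(FPKM + 1) between null and WT cells (horizontal axis) for the 7 tested genes (vertical axis) in SB, at 3 h, at 6 h and on line means; bars are 95% intervals of the limma fit and open points did not pass at an adjusted p under 0.05. All 4 points of Dnmt3a, Dnmt3b and Dnmt3l lie between -0.33 and -0.14, and no point of any gene passed.

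Genes that work beside the members give the setting. Of 10 maintenance partners, 3 fell in WT cells at 3 h and none rose (median -0.18), where 9.83% of all genes were lower; among the 3 were Hells, a remodeller needed for methylation of repeats (-0.37, adjusted p = 0.015 by limma), and Zfp57, which protects imprints (-0.43, adjusted p = 0.021). At 6 h in WT cells 2 fell, beside 6.31% of all genes, Lig1, the ligase that joins newly copied DNA (-0.65, adjusted p = 0.024 by limma), and Trim28, the corepressor partner of ZFP57 (-0.30, adjusted p = 0.044). In null cells 2 fell at 3 h and 1 at 6 h, beside 7.14% and 5.53% of all genes.

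Genes of DNA replication were also counted. Of 18 S phase genes tested, 9 fell and 3 rose in WT cells at 3 h (median -0.16), and 6 fell and 2 rose at 6 h (median -0.21), where 22.5% and 15.9% of all genes passed, 9.83% and 6.31% as lower. In null cells 3 fell and 1 rose at 3 h, and 6 fell and 1 rose at 6 h, where 13.6% and 13.4% of all genes passed. Cdt1, which licenses replication origins, fell by 0.47 on the log2 scale in WT cells at 3 h (adjusted p = 0.019 by limma), while Ccne2, a cyclin of S phase entry, rose by 0.53 (adjusted p = 0.014). The part of these genes in the fall of Uhrf1 and Dnmt1 was not tested.

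Genes acting with the TET enzymes moved in single cases. Of 5 TET partners and cofactors tested, Cxxc5, a CXXC protein known to bind TET2, rose in all 4 Activin comparisons, by 1.07 in WT cells and 1.09 in null cells at 3 h (adjusted p = 0.00016 and 0.00023 by limma) and by 0.45 and 0.34 at 6 h. In WT cells 1 of the 5 fell at each time, Sin3a at 3 h (-0.42, adjusted p = 0.024 by limma) and Hif1an at 6 h (-0.32, adjusted p = 0.036). Of all genes, 22.5% and 15.9% passed in WT cells at 3 h and 6 h, and 13.6% and 13.4% in null cells. Of 15 genes of oxidised base repair, 6 fell and 2 rose in WT cells at 3 h, where 22.5% of all genes passed, 9.83% as lower. Gadd45g, a stress gene linked to demethylation, was at -0.89 (adjusted p = 0.0032 by limma) and Gadd45a at -0.44 (adjusted p = 0.026). The 2 that rose were Gadd45b, by 0.52 (adjusted p = 0.029 by limma), and Polb, a repair polymerase, by 0.42 (adjusted p = 0.022). In null cells at 3 h, 4 of the 15 fell and none rose, beside 7.14% of all genes as lower.

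Proteins that read CpG and enzymes that methylate histones act on the same DNA. Of 6 CXXC readers of unmethylated CpG, 2 fell at 3 h and 3 at 6 h in WT cells, where 9.83% and 6.31% of all genes were lower, with Cxxc1, a subunit of a histone H3K4 methyltransferase complex, at -0.42 (adjusted p = 0.0067 by limma) at 3 h. Of 4 methyl-CpG readers tested, Zbtb38 rose in all 4 comparisons, by 0.48 to 0.72 on the log2 scale. Another of them, Mbd3, fell in null cells at 6 h (-0.30, adjusted p = 0.049 by limma). Of all genes, 22.5% and 15.9% passed in WT cells at 3 h and 6 h, and 13.6% and 13.4% in null cells. Of 8 histone methyltransferases tested, 3 fell in WT cells at 3 h, beside the same 9.83%, led by Setdb1 (-0.47, adjusted p = 0.0072 by limma) and Ehmt2 (-0.44, adjusted p = 0.014), enzymes of H3K9 methylation, and Ehmt2 fell in all 4 comparisons.

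The SAM cycle supplies the methyl group to the methyltransferases. Of 13 one-carbon and SAM cycle genes, 4 fell and 1 rose in WT cells at 3 h and 3 fell at 6 h, where 22.5% and 15.9% of all genes passed, with Mtr, the methionine synthase, at -0.29 (adjusted p = 0.035 by limma) and -0.38 (adjusted p = 0.017). Of 15 tested germline genes that DNA methylation is known to silence, 0 passed in WT cells at 3 h or 6 h by limma, with 1 at an unadjusted p under 0.05 each time, and 1 in null cells at 6 h, Tdrkh, a piRNA pathway gene (0.35, adjusted p = 0.043). Of all genes, 13.4% passed in null cells at 6 h. Between null and WT cells in SB, where the DNMT3 values were lower in the null lines, the median of the 15 was -0.27, beside -0.0031 over all genes; 0 passed by limma and 5 had an unadjusted p under 0.05.

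Among 7 tested regulators of the DNMT3 genes in stem cells, Nanog, a pluripotency factor and Activin target, rose by 4.15 in WT and 3.49 in null cells at 3 h (adjusted p = 5.6e-08 and 1.9e-07 by limma). Myc rose in all 4 comparisons, by 0.51 to 0.79 on the log2 scale. Mycn fell in 3 of them and Lin28a, an RNA-binding protein of pluripotent cells, in 3, by 0.55 and 0.36 in WT cells at 3 h (adjusted p = 0.0037 and 0.0098 by limma). In WT cells 2 of the 7 rose and 2 fell at 3 h, and 2 rose and 3 fell at 6 h. Of all genes, 22.5% and 15.9% passed in these comparisons. In null cells 2 rose and 0 fell at 3 h, and 2 rose and 2 fell at 6 h, beside 13.6% and 13.4% of all genes.

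Genes with the most similar pattern to each member were found by Pearson's r of log2(FPKM + 1) over the 12 libraries, which share treatment, line and depth; this is a description with no test. For Dnmt3l they were Plcd1, Maz and Fkbp5 (r of 0.986 to 0.990), for Uhrf1 they were Gtf3c1, Csnk1d and Sf3b2 (0.986 to 0.992), and for Dnmt1 they were Chd4, Supt6 and Kat7 (0.959 to 0.980). For Dnmt3b they were Ythdc1, Trap1 and Pabpc1 (0.938 to 0.947), for Dnmt3a Gm45018, Tmem150a and Csrnp1 (0.892 to 0.912), for Tet1 Otud4, Pwwp2a and Akap13 (0.802 to 0.844), and for Tet3 Nsd1, Bmi1 and Nisch (0.875 to 0.879). Among the members themselves r was highest between Uhrf1 and Dnmt3l (0.901) and lowest between Uhrf1 and Tet1 (0.136).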

How the data were processed

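RNA from 12 libraries (poly(A) RNA, single 50-base reads, sequenced and aligned by a company) was deposited by the authors as FPKM per gene locus, with mm10 as the build per the submitters' processing notes. For the aligner, the quantifier and strand, nothing is given in the sources used here. Loci without a name (2666 of 17446; 3.41 to 3.86% of summed FPKM) stayed out, as did 27 loci with a status other than OK from named genes. Starts were read as counted from 0 and raised by 1. Of 13508 named genes, 12823 with at least 1 FPKM in 2 libraries were tested as log2(FPKM + 1) in limma 3.58.1 (R 4.3.3, trend), with 6 group means over all 12 libraries; a fold on this scale understates the change of low genes. The fit was tested on simulated data.

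The replicate number is the cell line, so it pairs libraries across treatments: deviations of a line from its group means correlated at 0.0165 to 0.0537 (WT) and 0.246 to 0.349 (null) between treatments. Fits with the line as a block, other pseudocounts (0.1), filters (none, 5 FPKM), scalings (quantile, equal medians), groups and each line left out were alternatives; removal of GC and length trends (12201 genes) and summed rows of a name were added after seeing the data. Members and gene lists were chosen with earlier results of these data known. Named were all members, the 2 largest rises and falls that passed in each list, and the 3 genes of mean FPKM of 5 or more most like each member. Promoter sequences are RefSeq's (GRCm38.p6), and all 8 genes matched.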

Additional observations from a re-analysis of the deposited data

Results flagged for a closer look

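The 6 h values of Dnmt3a differed from SB with opposite sign in the genotypes, and neither difference passed (adjusted p = 0.24 in WT and 0.74 in null by limma). Its difference from SB was -0.090 (line 18) and -0.095 (line 26) on the log2 scale in WT cells, whereas null cells had 0.0014 (line 25) and 0.055 (line 39). The difference in response was 0.12 (95% interval -0.045 to 0.29, adjusted p of 1 by limma), so it did not pass, and the value for null line 25 is close to 0. The opposite sign was lost with GC and length trends removed, where the group differences were 0.0044 in WT and 0.13 in null cells, and after quantile normalization, where they were -0.15 and -0.0079. Dnmt3a was chosen here only because every line of a genotype had the same sign. Groups of 2 libraries are too small for a test of single libraries that stand apart.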

How the results depend on the processing

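No member that passed reversed its direction under any alternative. The counts of members that passed, of 7, moved as follows, from 2 in WT at 3 h, 4 in WT at 6 h, 2 in null at 6 h and 0 elsewhere. With a replicate block for the cell line the count was 4 in WT at 3 h, 1 for WT 6 h against 3 h, 3 in null at 3 h, 4 in null at 6 h and 2 for null 6 h against 3 h; with GC and length trends removed as well it was 4, 1, 2, 4 and 1. The block changed no count in WT at 6 h or in the differences in response; for null against WT in a treatment the line was a random term, which changed no count, and on line means no block could be fitted. With GC and length trends removed alone, 1 member passed in null at 3 h, 3 in WT at 6 h (without Dnmt3b) and 2 in WT at 3 h (Dnmt3l in place of Dnmt3b). In WT at 3 h the count was 3 under the filter of 5 FPKM, quantile normalization, median scaling and a fit of only the groups compared, and in null at 6 h it was 3 under the first 3 of these. Median scaling gave 1 in WT 6 h against 3 h, in null at 3 h and in null 6 h against 3 h; quantile normalization gave 1 in null at 3 h and 1 for null against WT in SB, as did the filter of 5 FPKM in the latter. Only the groups compared in the fit gave 0 in null at 6 h. Leaving out a line in turn gave 0 to 4 members in WT at 3 h and at 6 h, 0 to 1 for WT 6 h against 3 h, 0 to 2 in null at 3 h and at 6 h, 0 to 3 for null against WT in SB, 0 to 2 at 6 h and 0 to 1 on line means. The cause was not tested, except that leaving out a line leaves its groups with 1 library. Summing the rows of a name changed no count. Depth limits Tet2 to 0 to 11 reads a library.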
